A study of Mus musculus with 6 samples.

Results

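The genes described here encode detoxifying enzymes: quinone reductases, alcohol and aldehyde dehydrogenases, aldo-keto and carbonyl reductases, glutathione transferases, epoxide hydrolases, and the families that attach a sugar or a sulfate. They were chosen by name. Of 53715 rows in the table, 122 protein-coding genes carry a symbol of the Nqo, Adh, Aldh, Akr, Cbr, Gst, Mgst, Ephx, Ugt or Sult families, and 43 of these averaged at least 1 FPKM across the 6 libraries (FPKM, fragments per kilobase of the gene, corrected for the depth of sequencing). Nqo1 and Adh7 were named in advance for their known increase in these data, so their values are given as a description, with no test. Within these families, the name and the mean level over all libraries chose the other 41 members. Neither depends on how the groups differ, except for the members that reached the level in 1 group only, which are marked. The families themselves were chosen with earlier results of these data known, so shares of members set beside shares of all genes are a description.

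These enzymes act in successive steps on reactive or foreign compounds. Dehydrogenases and reductases oxidise or reduce alcohols, aldehydes, ketones and quinones with NAD or NADPH, epoxide hydrolases open epoxides with water, and transferases then couple the product to glutathione, glucuronic acid or sulfate so that it can leave the cell. Many of the genes are known targets of NRF2, a transcription factor that binds antioxidant response elements and is held back by KEAP1, and kidney tubules are known to hold high levels of several of them.

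The cells were an immortalized mouse line of podocytes, the epithelial cells that cover the capillaries of the kidney filter. All were grown at 33 °C in medium with interferon gamma and 10% serum, then moved to 37 °C with 5% serum on collagen for 10 to 14 days to differentiate. The control group, labelled WT, received a scrambled short interfering RNA (siRNA), and the other group, labelled TFEB knockdown, received an siRNA against Tfeb, which encodes a transcription factor known for activating lysosome and autophagy genes. Each group had 3 libraries, all from 1 cell line, and the labels do not say whether replicates are separate cultures, so the p-values refer to the spread between these 3 libraries, which may be technical only.

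Derived read totals were 18062898 to 20610888 per library, and 0.407% to 0.503% of the reads fell on the 122 genes matched by name. Tfeb had 1.8, 2.05 and 2.27 FPKM across scrambled siRNA replicates 1 to 3 and 0.639, 0.714 and 0.822 FPKM across Tfeb siRNA replicates 1 to 3, and was lower in every library given its siRNA (log2 fold change -1.05, SE 0.13, limma adjusted p = 0.00148), having passed the level filter of 1 FPKM through the scrambled group. Of 12 podocyte markers, 6 had a mean over all libraries under 0.5 FPKM, among them Nphs1 (nephrin, 0.232 and 0.0651 FPKM in the scrambled and Tfeb siRNA groups), a defining marker of a mature podocyte. Synpo, Podxl, Cd2ap, Actn4 and Plce1 were among those above 1 FPKM. Of the 6 podocyte markers tested with limma, 2 rose, Podxl among them, 1 fell (Synpo) and 3 did not pass. The summed podocyte markers ran from 286 to 309 FPKM across the scrambled and from 271 to 277 FPKM across the Tfeb siRNA libraries. Markers of the proximal tubule, a kidney segment rich in these enzymes, summed to 176 to 228 and 181 to 218 FPKM, nearly all from Lrp2 and Aqp1, while Slc34a1 was under 0.1 FPKM and Miox and Kap were at 0. Hepatocyte markers summed to 0.109 to 0.196 and 0.0821 to 0.0954 FPKM, with Ttr at 0, and endothelial markers to 0.442 to 0.737 and 0.373 to 0.519 FPKM, with Emcn at 0. Mesangial and fibroblast markers summed to 37.0 to 39.7 and 42.3 to 43.7 FPKM, with Col1a1 passing the test upward. Macrophage and leukocyte markers summed to 9.16 to 11.1 and 6.12 to 7.26 FPKM, with Csf1r passing downward and Cd3e at 0. Keratinocyte markers summed to 2.55 to 4.28 and 4.20 to 5.11 FPKM. The part of these markers in the results below was not tested.

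The detoxifying enzymes changed in both directions. Gsta3 reached a mean of 1 FPKM through the Tfeb siRNA group alone and Mgst2 through the scrambled group alone, so each had to differ to some extent, and these genes are left out of the first counts together with Nqo1 and Adh7. Of the other 39 members, 9 were higher (23.1%) and 11 lower (28.2%) in the Tfeb siRNA group and 19 did not pass (limma on log2(FPKM + 0.5), two-sided, adjusted p below 0.05 by Benjamini-Hochberg over 12257 genes). Of all genes tested 33.3% passed, 16.9% upward and 16.4% downward, against 51.3% of these members. Among the 39, the groups did not overlap for 12 that were higher and 14 that were lower, where 48.7% of all tested genes did not overlap (25.3% higher and 23.5% lower). The median log2 fold change was -0.06 over the 39 members and 0.02 over all tested genes.

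With the 4 genes set apart counted in, 12 of the 43 members lay past the threshold upward and 12 downward, and the groups did not overlap for 15 and 15. These totals, too, are a description only, and later counts of members by promoter letters, by 3′ UTR letters or by library include these 4 genes. Gene positions below are those of the deposited table (mouse build mm10). In bulk RNA, fewer cells that use a gene and less of its RNA per cell cannot be told apart.

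Mean levels ran from 1.01 FPKM (Mgst2) to 331 FPKM (Aldh1a1). On the FPKM scale the most abundant member, Aldh1a1, ranked 66 of the 10534 tested protein-coding genes, followed by Akr1a1 (rank 160), Gsto1 (163), Ephx1 (200) and Gstp1 (339). Aldh1a2, Aldh2 and Gstm1 ranked 627, 658 and 667, and Adh7 and Nqo1 1355 and 1920. These are ranks over all 6 libraries, and neighbours in this order such as Akr1a1 and Gsto1 overlapped in their values.

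**Figure D1:**
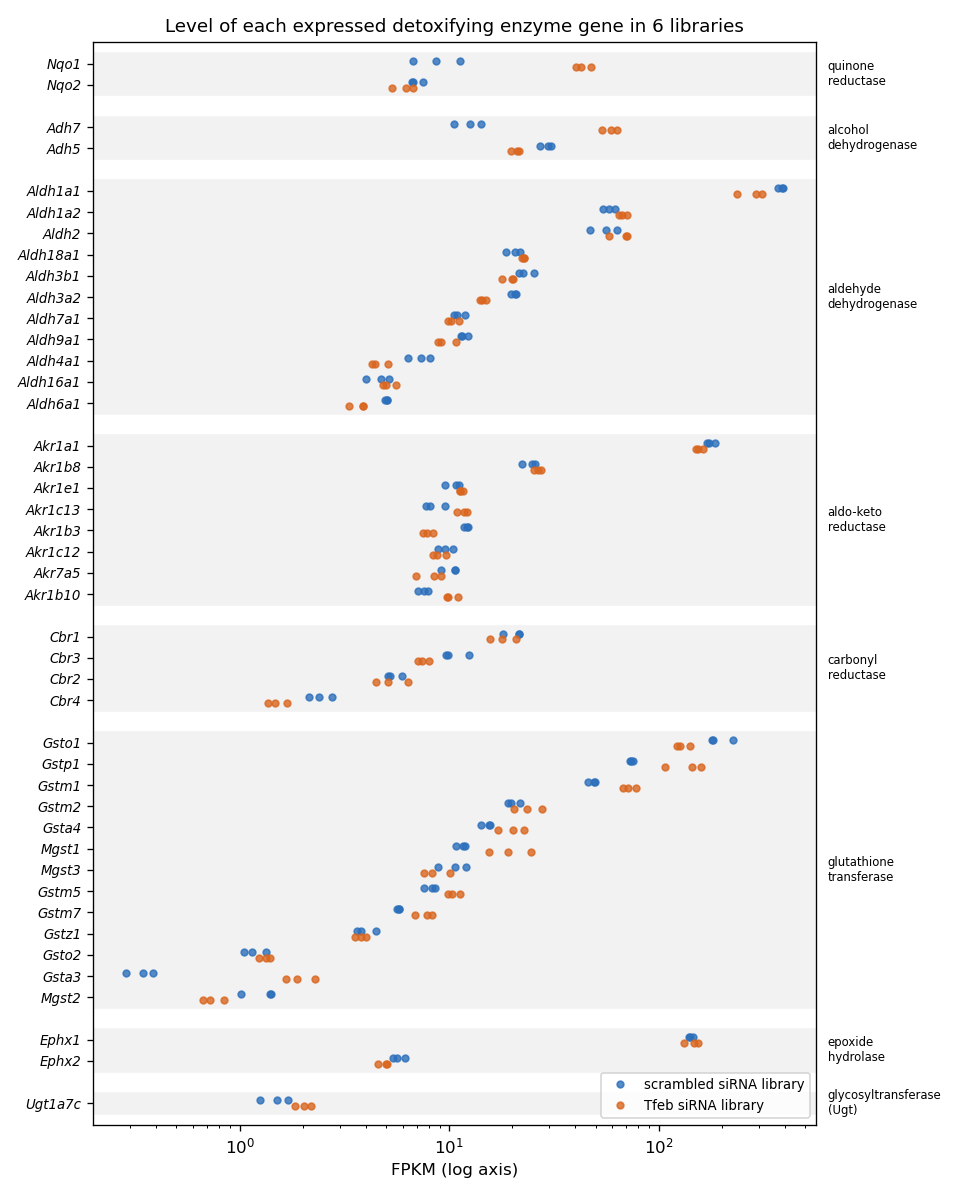
Level of each of the 43 expressed members in every library, by enzyme class; the horizontal axis is FPKM on a log scale, blue points are the 3 scrambled siRNA libraries and orange points the 3 Tfeb siRNA libraries. Nqo1, Adh7 and Gsta3 show the widest gaps between the groups, and Aldh1a1 sits farthest to the right.

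**Figure D2:**
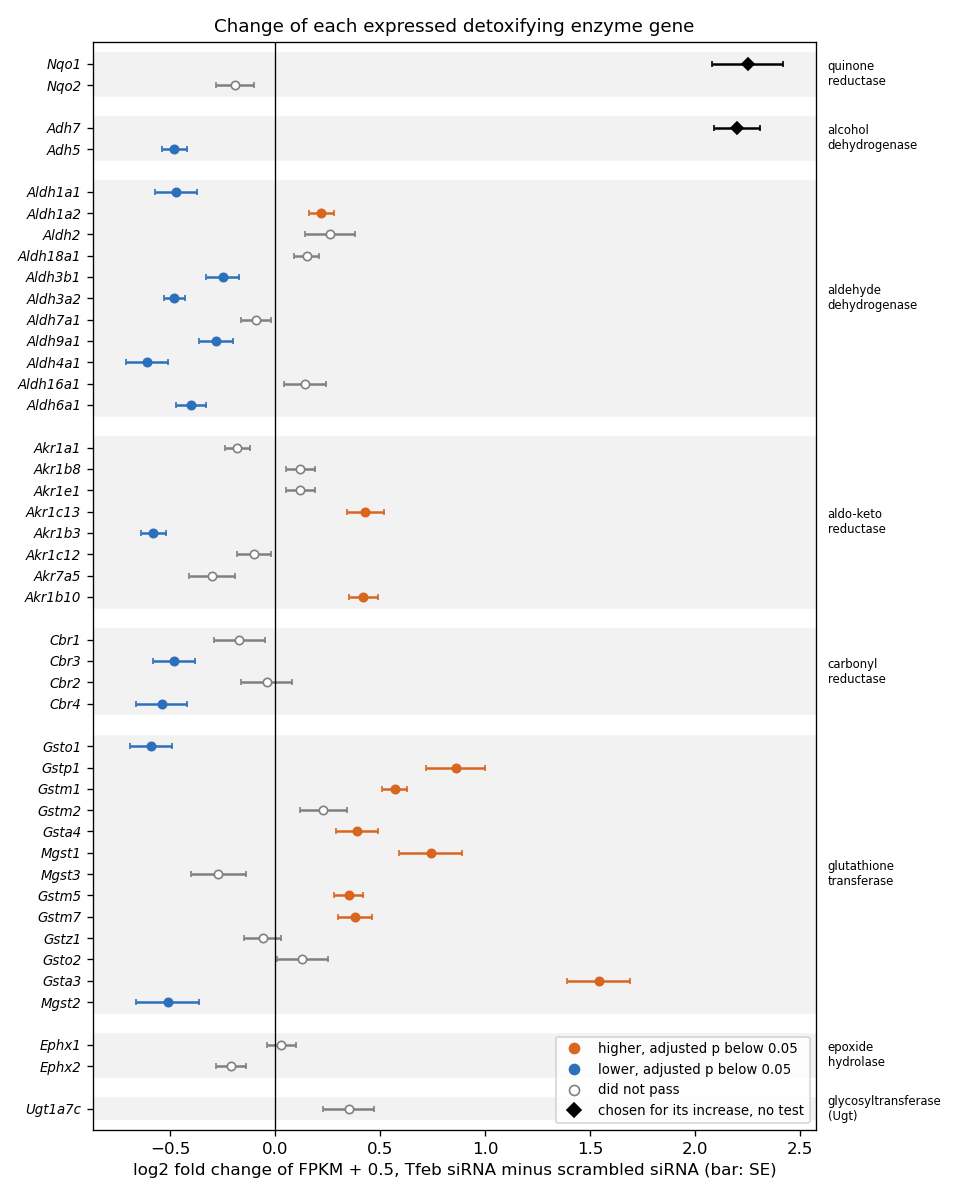
Log2 fold change of FPKM + 0.5 (Tfeb siRNA minus scrambled siRNA, horizontal axis) with its SE as a bar, for each expressed member by class; orange points passed upward, blue points downward, open points did not pass, and black diamonds are Nqo1 and Adh7, given with no test. Aldehyde dehydrogenases lie mostly left of 0 and glutathione transferases mostly right of it.

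Quinone reductases reduce quinones by transfer of electrons in a pair, which avoids the reactive semiquinone. Nqo1, NAD(P)H quinone dehydrogenase 1 (ENSMUSG00000003849, chromosome 8, 107388225 to 107403206, minus strand), had 8.62, 6.75 and 11.3 FPKM across scrambled siRNA replicates 1 to 3 and 42.7, 40.2 and 47.7 FPKM across Tfeb siRNA replicates 1 to 3. The groups were far apart, with every Tfeb siRNA library above every scrambled one. The means were 8.88 ± 2.27 and 43.5 ± 3.84 FPKM (SD, n = 3), a 4.9-fold difference that rests on 862 scrambled reads and 3884 Tfeb siRNA reads. Nqo2, which uses dihydronicotinamide riboside in place of NAD(P)H, had 6.67, 7.51 and 6.72 FPKM across the scrambled and 6.24, 5.31 and 6.7 FPKM across the Tfeb siRNA libraries. Its groups overlapped and it did not pass the test (log2 fold change -0.19, SE 0.09, limma adjusted p = 0.168), and 18.9% of its exonic bases overlap Serpinb6a on the other strand.

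The stretch upstream of Nqo1 is shown since this gene differed most among the members on the log2 scale. It is the RefSeq promoter of build GRCm38.p6 (chr8:107403207-107403455, minus strand) up to the annotated start of the gene, 5′ to 3′, and the capitals mark the letters TATAAA, which begin 29 bases before the RefSeq start site.
Nqo1: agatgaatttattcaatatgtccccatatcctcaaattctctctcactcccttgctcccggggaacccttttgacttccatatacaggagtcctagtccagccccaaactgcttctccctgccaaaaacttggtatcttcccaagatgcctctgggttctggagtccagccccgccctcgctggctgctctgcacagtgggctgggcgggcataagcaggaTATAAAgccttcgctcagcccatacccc

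Alcohol dehydrogenases oxidise alcohols to aldehydes, and the pair expressed here differed in direction while lying near each other. Adh7, the class IV enzyme known for oxidising retinol and ethanol in epithelia (ENSMUSG00000055301, chromosome 3, 138217760 to 138233382, plus strand), had 12.6, 10.5 and 14.2 FPKM across scrambled siRNA replicates 1 to 3 and 63.4, 53.5 and 59.1 FPKM across Tfeb siRNA replicates 1 to 3. Each Tfeb siRNA library was above each scrambled one. The means were 12.5 ± 1.84 and 58.6 ± 4.98 FPKM, 4.71-fold apart. Adh5, the class III enzyme that clears formaldehyde bound to glutathione (chromosome 3, 138443093 to 138455499, plus strand), lies 209710 bases further along the same chromosome and had 30.6, 27.2 and 29.6 FPKM across the scrambled and 21, 19.8 and 21.6 FPKM across the Tfeb siRNA libraries. It fell 1.4-fold (log2 fold change -0.48, SE 0.06, limma adjusted p = 0.00188), and its groups did not overlap. Summed over the 6 alcohol dehydrogenase genes of the rule, the level was 41.7 ± 3.38 and 79.6 ± 5.66 FPKM in the scrambled and Tfeb siRNA groups, and the share of Adh7 in it was 29.8% and 73.7%. The other 4 genes lay below 1 FPKM.

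The stretch upstream of Adh7 is shown for the same reason as that of Nqo1 (RefSeq, GRCm38.p6, chr3:138217523-138217759, plus strand). The capitals mark TATAAA on the other strand, 202 bases before the RefSeq start site, and TGAGTCA, the letters of an AP-1 site (TGANTCA), 25 bases before it.
Adh7: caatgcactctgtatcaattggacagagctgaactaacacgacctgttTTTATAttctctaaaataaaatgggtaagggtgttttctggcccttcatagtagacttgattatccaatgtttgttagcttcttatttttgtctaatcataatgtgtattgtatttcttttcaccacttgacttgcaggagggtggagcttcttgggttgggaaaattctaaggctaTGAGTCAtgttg

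Aldehyde dehydrogenases oxidise aldehydes to acids, and in this class decreases were the more frequent. Of 21 genes 11 were expressed, of which 1 rose, 6 fell and 4 did not pass, with a median log2 fold change of -0.25. Aldh1a1, a cytosolic enzyme that makes retinoic acid and clears lipid aldehydes (ENSMUSG00000053279, chromosome 19, 20492715 to 20643462, plus strand), had 388, 370.4 and 393 FPKM across scrambled siRNA replicates 1 to 3 and 289.7, 237 and 310.2 FPKM across Tfeb siRNA replicates 1 to 3. The groups did not overlap, and Tfeb siRNA replicate 2 was the lowest library. Aldh1a1 fell 1.38-fold, from 384 ± 11.9 to 279 ± 37.8 FPKM (log2 fold change -0.47, SE 0.10, limma adjusted p = 0.0127), although with no filter on low values, which tests 29171 genes, its adjusted p was 0.0528. Aldh1a2, the retinoic acid enzyme of the embryo (chromosome 9, 71215789 to 71296243, plus strand), was the single member of the class that rose, 1.17-fold, from 57.9 ± 3.69 to 67.6 ± 3.05 FPKM (limma adjusted p = 0.0348). That call was lost without scrambled siRNA replicate 1 (adjusted p = 0.0847) or 3 (0.0925) and without Tfeb siRNA replicate 2 (0.0786) or 3 (0.104), with no filter (0.0731) and with no mean-variance trend (0.0532).

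Of the 6 aldehyde dehydrogenases that fell, Aldh4a1 and Aldh6a1 work in mitochondria and Aldh3a2 and Aldh3b1 on fatty aldehydes. Aldh4a1, the mitochondrial enzyme of proline breakdown (chromosome 4, 139622866 to 139649690, plus strand), had 6.37, 8.14 and 7.35 FPKM across the scrambled and 4.31, 5.08 and 4.43 FPKM across the Tfeb siRNA libraries, with every Tfeb siRNA library below every scrambled one. It fell 1.58-fold (log2 fold change -0.61, SE 0.10, limma adjusted p = 0.00487), but 32.5% of its exonic bases overlap Gm21969 on the same strand, so reads of the 2 gene models cannot be told apart there. Aldh3a2, the fatty aldehyde dehydrogenase of the endoplasmic reticulum (chromosome 11, 61223417 to 61267464, minus strand), had 20.8, 19.7 and 20.6 FPKM across the scrambled and 14.3, 14 and 14.9 FPKM across the Tfeb siRNA libraries. The libraries of each group lay close together and the groups well apart, a 1.41-fold fall (log2 fold change -0.48, SE 0.05, limma adjusted p = 0.00092). Aldh6a1, the mitochondrial enzyme of valine and thymine breakdown (chromosome 12, 84430717 to 84451004, minus strand), had 5.04, 5.06 and 4.94 FPKM across the scrambled and 3.9, 3.34 and 3.87 FPKM across the Tfeb siRNA libraries. It fell 1.35-fold (log2 fold change -0.40, SE 0.07, limma adjusted p = 0.00759) with no overlap, and 18.6% of its exonic bases overlap Bbof1 on the other strand.

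Smaller decreases were less stable. Aldh9a1, which oxidises the carnitine precursor trimethylaminobutyraldehyde, fell from 11.7 ± 0.506 to 9.59 ± 1.05 FPKM (limma adjusted p = 0.0366). It lost the call without scrambled siRNA replicate 1 (adjusted p = 0.0653), 2 (0.0698) or 3 (0.114), without Tfeb siRNA replicate 1 (0.0989) or 3 (0.106), and with no filter (0.0844). Aldh3b1, an enzyme for lipid aldehydes at membranes, fell from 23.2 ± 1.97 to 19.4 ± 1.23 FPKM (limma adjusted p = 0.0439). It lost the call without scrambled siRNA replicate 2 (0.113) or 3 (0.0845), without Tfeb siRNA replicate 1 (0.0691), 2 (0.125) or 3 (0.0709), with the replicate number as a block (0.0626), with no trend (0.0621) and with no filter (0.0952).

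The 4 aldehyde dehydrogenases that did not pass lay on both sides of 0. Aldh2, the mitochondrial enzyme known for clearing acetaldehyde, had 55.4 ± 8.04 and 66.4 ± 7.16 FPKM in the scrambled and Tfeb siRNA groups (limma adjusted p = 0.142), and passed upward with the replicate block (adjusted p = 0.0131, the lowest over the alternatives, which ran up to 0.323). Aldh18a1, which makes the precursor of proline, had 20.4 ± 1.55 and 22.6 ± 0.265 FPKM (limma adjusted p = 0.121). Aldh7a1, of lysine breakdown, had 11.1 ± 0.671 and 10.4 ± 0.682 FPKM (limma adjusted p = 0.362), and Aldh16a1 4.63 ± 0.568 and 5.14 ± 0.401 FPKM (limma adjusted p = 0.31).

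Aldo-keto reductases reduce aldehydes and ketones with NADPH. Of 17 genes 8 were expressed, of which 2 rose, 1 fell and 5 did not pass, with a median log2 fold change of 0.01. Akr1b3, the aldose reductase that turns glucose into sorbitol (chromosome 6, 34302434 to 34317478, minus strand), had 11.7, 12.1 and 12.4 FPKM across the scrambled and 7.88, 7.54 and 8.39 FPKM across the Tfeb siRNA libraries. It fell 1.52-fold (log2 fold change -0.58, SE 0.06, limma adjusted p = 0.00082) with a wide gap between the groups, and 13.6% of its 50-base words recur in other genes, mostly Gm38056. Its neighbour Akr1b10, a reductase of retinal and lipid aldehydes (chromosome 6, 34384218 to 34396950, plus strand), had 7.56, 7.08 and 7.93 FPKM across the scrambled and 11, 9.79 and 9.85 FPKM across the Tfeb siRNA libraries. It rose 1.36-fold (log2 fold change 0.42, SE 0.07, limma adjusted p = 0.00487), again with no overlap. Akr1b8 lies between them, 36640 bases from Akr1b3 and 15754 bases from Akr1b10, and did not pass, with 24.3 ± 1.83 and 26.5 ± 1.1 FPKM (limma adjusted p = 0.207).

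The Akr1c genes reduce steroids and other ketones. Akr1c13 (chromosome 13, 4191150 to 4205596, plus strand) had 7.76, 9.57 and 8.1 FPKM across the scrambled and 12.2, 10.9 and 11.7 FPKM across the Tfeb siRNA libraries. It rose 1.37-fold (log2 fold change 0.43, SE 0.09, limma adjusted p = 0.00962) with no overlap between groups. Akr1c12, 62579 bases away, had 9.61 ± 0.788 and 8.91 ± 0.656 FPKM and did not pass (limma adjusted p = 0.361). These neighbours share 24.2% and 28.6% of their 50-base words with each other, so the split of reads between them is uncertain.

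Akr1a1, which reduces many aldehydes and takes part in ascorbate synthesis in mice, was the most abundant of the class, with 170.2, 174 and 186 FPKM across the scrambled and 151, 154 and 162 FPKM across the Tfeb siRNA libraries. All Tfeb siRNA libraries were below all scrambled ones, but the adjusted p was 0.0515 (limma). With the replicate block it was 0.0198, with TPM 0.015, with voom on derived reads 0.0259 and with a filter at 5 FPKM 0.0468, and it ran from 0.015 to 0.169 over all alternatives. Akr7a5, an aflatoxin aldehyde reductase, had 10.2 ± 0.861 and 8.19 ± 1.12 FPKM (limma adjusted p = 0.0715), and passed downward with the block (0.0107), with TPM (0.0332) and without Tfeb siRNA replicate 3 (0.0482), in a range of 0.0107 to 0.182. Akr1e1 had 10.5 ± 0.859 and 11.4 ± 0.227 FPKM and did not pass (limma adjusted p = 0.223).

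Carbonyl reductases reduce ketones and quinones, and all 4 genes of this class were expressed. Of these, 2 fell and 2 did not pass, with a median log2 fold change of -0.32. Cbr4, a subunit of a mitochondrial reductase of fatty acid synthesis (chromosome 8, 61487734 to 61506694, plus strand), had 2.76, 2.14 and 2.41 FPKM across the scrambled and 1.37, 1.69 and 1.48 FPKM across the Tfeb siRNA libraries. Cbr3 (chromosome 16, 93683215 to 93690990, plus strand) had 9.84, 9.71 and 12.5 FPKM across the scrambled and 7.1, 7.39 and 8.01 FPKM across the Tfeb siRNA libraries. In both genes every Tfeb siRNA library was below every scrambled one. Cbr4 fell 1.61-fold (log2 fold change -0.54, SE 0.12, limma adjusted p = 0.0129) and Cbr3 1.43-fold (log2 fold change -0.48, SE 0.10, limma adjusted p = 0.0128). Cbr1, 72709 bases from Cbr3 and the most abundant of the class, had 18, 21.6 and 21.5 FPKM across the scrambled and 17.9, 15.6 and 20.9 FPKM across the Tfeb siRNA libraries, with overlap (limma adjusted p = 0.309). Cbr2 had 5.42 ± 0.448 and 5.31 ± 0.955 FPKM (limma adjusted p = 0.84).

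Glutathione transferases couple electrophiles to glutathione, and in this class increases were the more frequent. Of 25 genes 13 were expressed, of which 7 rose, 2 fell and 4 did not pass, with a median log2 fold change of 0.35, and without Gsta3 and Mgst2, which reached the level in 1 group only, 6 rose and 1 fell of 11. Gstp1, the pi class enzyme (ENSMUSG00000060803, chromosome 19, 4035407 to 4037921, minus strand), had 72.6, 74 and 75.5 FPKM across scrambled siRNA replicates 1 to 3 and 144, 107 and 159 FPKM across Tfeb siRNA replicates 1 to 3. The scrambled libraries lay within a narrow band and the Tfeb siRNA libraries were spread out above it, with replicate 2 the lowest. Gstp1 rose 1.84-fold, from 74 ± 1.45 to 137 ± 26.9 FPKM (log2 fold change 0.86, SE 0.14, limma adjusted p = 0.004), and 33.7% of its 50-base words recur in Gstp2 and a pseudogene, although Gstp2 itself had only 4 and 8 reads in the 2 groups. Mgst1, a microsomal transferase and peroxidase (chromosome 6, 138140316 to 138156755, plus strand), had 11.9, 10.8 and 11.6 FPKM across the scrambled and 19.2, 15.5 and 24.5 FPKM across the Tfeb siRNA libraries. It rose 1.72-fold (log2 fold change 0.74, SE 0.15, limma adjusted p = 0.0101), with the same library lowest in its group.

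The 4 expressed mu class genes lie near each other on chromosome 3 in the order Gstm5, Gstm7, Gstm2 and Gstm1, with gaps of 27647, 49884 and 25801 bases. Gstm1 (chromosome 3, 108012255 to 108017973, minus strand) had 46.1, 49.9 and 49 FPKM across the scrambled and 71.3, 67.8 and 77.5 FPKM across the Tfeb siRNA libraries and rose 1.49-fold (log2 fold change 0.57, SE 0.06, limma adjusted p = 0.0011). Gstm7 rose from 5.75 ± 0.0751 to 7.63 ± 0.713 FPKM (limma adjusted p = 0.00955), and Gstm5 from 8.13 ± 0.505 to 10.5 ± 0.685 FPKM (limma adjusted p = 0.0102). Gstm2 had 20.2 ± 1.4 and 23.9 ± 3.61 FPKM and did not pass (limma adjusted p = 0.158). Thus 3 of the 4 rose, and the groups did not overlap for those 3. About 18.9% of the 50-base words of Gstm1 recur in other genes, most of them in Gstm2-ps1, and 13.9% of the exonic bases of Gstm5 overlap 4933431E20Rik on the other strand.

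The alpha class genes clear products of lipid peroxidation. Gsta3 (chromosome 1, 21240589 to 21265661, plus strand) had 0.287, 0.345 and 0.385 FPKM across the scrambled and 1.87, 1.67 and 2.29 FPKM across the Tfeb siRNA libraries, from 92 scrambled reads and 485 Tfeb siRNA reads. It lay below 1 FPKM in every scrambled and above it in every Tfeb siRNA library, 5.73-fold apart (log2 fold change 1.54, SE 0.15, limma adjusted p = 0.000793), and entered the list through the Tfeb siRNA group. Gsta4, which prefers hydroxynonenal, rose 1.32-fold, from 15.1 ± 0.807 to 20.1 ± 2.85 FPKM (limma adjusted p = 0.0269). That call was lost without scrambled siRNA replicate 2 (adjusted p = 0.0572) or 3 (0.0863), without Tfeb siRNA replicate 1 (0.0697) or 3 (0.0625), and with no filter (0.0718).

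Gsto1, the omega class enzyme and the most abundant transferase, went the other way (ENSMUSG00000025068, chromosome 19, 47854970 to 47864790, plus strand). It had 181, 179.6 and 227 FPKM across scrambled siRNA replicates 1 to 3 and 122, 126 and 140.4 FPKM across Tfeb siRNA replicates 1 to 3. The groups did not overlap, and scrambled siRNA replicate 3 stood above the other two of its group. Gsto1 fell 1.51-fold, from 196 ± 26.8 to 129 ± 9.77 FPKM (log2 fold change -0.59, SE 0.10, limma adjusted p = 0.00595). Gsto2 starts 754 bases after it and did not pass, with 1.18 ± 0.149 and 1.33 ± 0.0806 FPKM (limma adjusted p = 0.473). Mgst2, a microsomal enzyme of leukotriene synthesis that entered through the scrambled group, had 1.4, 1.02 and 1.41 FPKM across the scrambled and 0.843, 0.72 and 0.671 FPKM across the Tfeb siRNA libraries. It fell 1.71-fold (log2 fold change -0.51, SE 0.15, limma adjusted p = 0.0412), from 295 scrambled reads and 158 Tfeb siRNA reads. The call of Mgst2 was lost without scrambled siRNA replicate 1 (adjusted p = 0.116) or 3 (0.129), without Tfeb siRNA replicate 1 (0.0597), 2 (0.0991) or 3 (0.106), and with no filter (0.1). Mgst3 had 10.5 ± 1.59 and 8.65 ± 1.25 FPKM (limma adjusted p = 0.166) and Gstz1, of tyrosine breakdown, 3.99 ± 0.454 and 3.8 ± 0.233 FPKM (limma adjusted p = 0.673).

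The sums over these classes differed with and without their most abundant gene. Summed over the 25 glutathione transferases, the level was 381, 381 and 429.7 FPKM across the scrambled and 436, 389.9 and 491 FPKM across the Tfeb siRNA libraries, and the groups overlapped. Gsto1 made up 49.3% of the scrambled and 29.5% of the Tfeb siRNA sum. Without Gsto1 the sum was 199.6, 202 and 203 FPKM across the scrambled and 314, 264 and 350.5 FPKM across the Tfeb siRNA libraries, which did not overlap and gave 1.54-fold higher means (201 ± 1.78 and 309 ± 43.7 FPKM). Summed over the 21 aldehyde dehydrogenases, the level was 593, 599 and 623 FPKM across the scrambled and 504, 467 and 545 FPKM across the Tfeb siRNA libraries, with every Tfeb siRNA library lower. Aldh1a1 made up 63.4% and 55.2% of that sum. Without Aldh1a1 the means were 221 ± 13.7 and 226 ± 10.8 FPKM, and the groups overlapped. These sums were not tested.

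**Figure D3:**
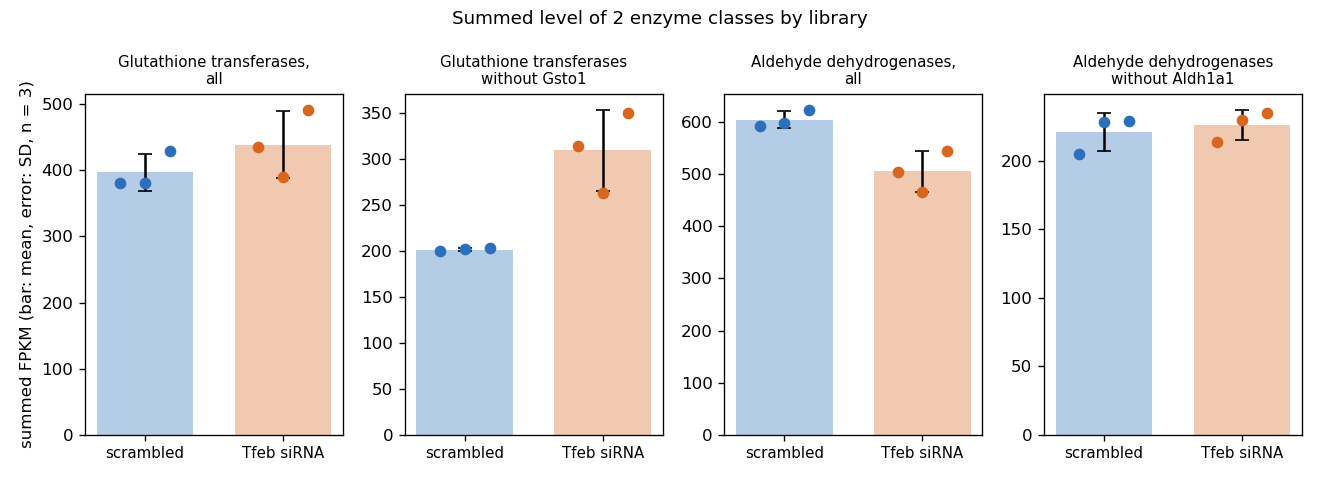
Summed FPKM (vertical axis, from 0; each panel has its own scale) of the glutathione transferases and the aldehyde dehydrogenases in each library, with and without the most abundant gene of the class; bars are means, error bars SD and points the 3 libraries of each group. The transferase groups separate once Gsto1 is left out, and the dehydrogenase groups overlap once Aldh1a1 is left out.

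The 2 expressed epoxide hydrolases and the 1 expressed sugar transferase did not pass the test. Ephx1, the microsomal epoxide hydrolase and 1 of the 4 most abundant members, had 139.8, 145 and 141 FPKM across the scrambled and 148, 132 and 155 FPKM across the Tfeb siRNA libraries. The groups overlapped and it did not pass (log2 fold change 0.03, SE 0.07, limma adjusted p = 0.798). Ephx2, the soluble hydrolase of fatty acid epoxides, had 5.72 ± 0.389 and 4.87 ± 0.244 FPKM (limma adjusted p = 0.0607), and passed downward with the replicate block (0.0364) and with TPM (0.0477), in a range of 0.0364 to 0.181. Ugt1a7c was the single glucuronosyltransferase above 1 FPKM of 22 Ugt genes, with 1.5, 1.25 and 1.7 FPKM across the scrambled and 2.04, 1.84 and 2.2 FPKM across the Tfeb siRNA libraries. Its Tfeb siRNA libraries were all higher, but it did not pass (limma adjusted p = 0.0668). It passed upward with the block (0.04), with no trend (0.0409) and with voom (0.0372), in a range of 0.0372 to 0.176. The Ugt1a transcripts share their last exons, and 53.7% of the 50-base words of Ugt1a7c recur in other genes, most of them in Ugt1a6a, so its reads may belong to several of them. The 21 sulfotransferase genes all lay below 1 FPKM.

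The level threshold set the list as follows. Just inside it were Mgst2 at a mean of 1.01 FPKM, Gsta3 at 1.14 and Gsto2 at 1.25, and just outside Akr1c18 at 0.873, Sult6b1 at 0.807 and Aldh1b1 at 0.788. Of the 79 genes below it, 24 had no read in any library, and 41, those 24 among them, had fewer than 10 reads in all. With no filter, 11.8% of 29171 genes passed limma, and of these 79 genes 4 were higher and 2 lower. Gsta2 had 0 reads over the scrambled libraries and 45 over the Tfeb siRNA libraries (adjusted p = 0.00396), at least 16.3-fold higher against a floor of 3 reads over the group. Gsta1 had 1 and 14 reads (0.00759), Ugt1a6a 15 and 54 (0.0172) and Ugt8a, which makes galactosylceramide, 51 and 120 (0.0279). The lower ones were Aldh1l1, of folate metabolism, with 303 and 77 reads (0.0102), and Aldh1a3, another retinoic acid enzyme, with 191 and 64 (0.0288). Gsta2 shares 49.8% of its 50-base words with other genes, Gsta1 first among them, so reads of those alpha class genes are uncertain.

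Expressed members that lie near each other did not always share a direction. Among 11 pairs of expressed members that follow each other along a chromosome, Gstm5 and Gstm7 both rose. Adh7, chosen for its increase, and Adh5 differed in direction. So did Aldh3b1 and Gstp1, which lie 105645 bases apart on chromosome 19 and of which Aldh3b1 fell and Gstp1 rose. The call of Aldh3b1 was not stable, as described above. In both of these pairs, members below 1 FPKM lie between the genes. In the other 8 pairs at least 1 gene did not pass.

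Letters of known binding motifs were looked for in the RefSeq promoters (GRCm38.p6, from 250 bases before to 50 after each start site, both strands), which hold 38 of the 43 members in 47 windows: 11 higher, 11 lower and 16 that did not pass. TGACNNNGC, the core of the antioxidant response element, was in 6 of the 47 windows, each of another gene, and in 12.4% of all 32851 windows. The 6 genes were Aldh1a2, Gsta3, Gstm5, Gstm7 and Mgst1, which were higher, and Aldh9a1, which was lower. TGANTCA, an AP-1 site, was in the windows of Adh7, Gstm5 and Gstp1 (higher), Aldh1a1 and Mgst2 (lower) and Nqo2, and in 7.81% of all windows. TATAAA was in 9 genes (5 higher, 2 lower and 2 that did not pass) and in 13.6% of all windows. CACGTG, the core of the element known to be bound by TFEB, was in Aldh3a2 and Aldh18a1 and in 7.15% of all windows, and its longer form TCACGTG, which contains it, in Aldh3a2 and in 3.77%. A match is a description of letters in the window and no evidence of binding, and these counts were not tested. Sequence outside the windows was not searched. A gene with no match to TGACNNNGC, such as Nqo1, may therefore hold one farther away.

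The matches to TGACNNNGC are shown with 10 bases on each side, since this is the element by which NRF2 is known to act on such genes. Each is given 5′ to 3′ on the strand of its gene (RefSeq, GRCm38.p6), and the capitals mark the match, which in Mgst1 is on the other strand. In Mgst1 and Gstm7 the match lies before the RefSeq start site but inside the gene as positioned in the deposited data.
Aldh1a2, chr9:71215667-71215695 (plus strand): gccgcggactTGACCGTGCgggcgccgcg
Gsta3, chr1:21240454-21240482 (plus strand): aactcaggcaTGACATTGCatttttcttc
Gstm5, chr3:107895802-107895830 (plus strand): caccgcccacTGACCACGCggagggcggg
Gstm7, chr3:107931725-107931753 (minus strand): tctgaagaccTGACAAAGCgaagccaatc
Mgst1, chr6:138140461-138140489 (plus strand): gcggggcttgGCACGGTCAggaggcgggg
Aldh9a1, chr1:167349894-167349922 (plus strand): ttaattatgcTGACTAGGCccaagctact

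The CACGTG matches are given in the same way, as the letters tied to the targeted factor. Aldh3a2 fell and Aldh18a1 did not pass, as described above. The Aldh3a2 match lies before a RefSeq start site but inside the gene as positioned in the deposited data.
Aldh3a2, chr11:61267201-61267226 (minus strand): gcctcatagtCACGTGcagcagctca
Aldh18a1, chr19:40588507-40588532 (minus strand): agggggccgcCACGTGgagcgtgggc

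Longer upstream stretches are shown for the transferases with the largest increases. In Gsta3 (chr1:21240335-21240584, plus strand) the capitals mark TGACATTGC, 121 bases before the RefSeq start site, and in Gstp1 (chr19:4037922-4038162, minus strand) they mark TGAGTCA, 74 bases before it. Both stop where the annotated gene or the RefSeq start site begins.
Gsta3: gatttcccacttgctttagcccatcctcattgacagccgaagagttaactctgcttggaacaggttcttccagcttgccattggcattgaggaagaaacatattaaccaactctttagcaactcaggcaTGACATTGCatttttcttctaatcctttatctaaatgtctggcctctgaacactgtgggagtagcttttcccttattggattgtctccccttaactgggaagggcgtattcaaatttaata
Gstp1: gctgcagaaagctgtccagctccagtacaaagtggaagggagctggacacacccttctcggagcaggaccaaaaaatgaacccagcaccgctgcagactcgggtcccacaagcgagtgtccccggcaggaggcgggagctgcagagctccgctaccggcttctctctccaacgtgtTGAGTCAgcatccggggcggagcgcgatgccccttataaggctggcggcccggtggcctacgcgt

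As background, an siRNA can act on transcripts other than its target by seed pairing in their 3′ UTR. The members were searched for 8 heptamers that had been chosen on these same data for going with falling or rising genes across the table. The falling heptamers were CTACATA with its shifted form TACATAA, and GGCCATG with its shifted form GCCATGA. One of them was in the longest annotated 3′ UTR of 1 of 12 higher members (Adh7), 4 of 12 lower members (Aldh9a1, Aldh4a1, Cbr4 and Gsto1) and 3 of 19 that did not pass. That is 18.6% of the members, against 33.5% of the 10474 tested genes searched. These shares take no account of the length of the 3′ UTR. The rising heptamers were TCGGAGA with its shifted form CGGAGAA, and TGTCACG with its shifted form GTCACGA. One of them was in 5 of 43 members, 11.6%, against 9.36% of all. In 32 members neither kind was found, Nqo1, Gstp1 and Aldh1a1 among them, although the 3′ UTR searched in Gstp1 had only 66 bases. The part of these words in the members' changes was not tested.

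Libraries of a group ranked unevenly across the members. Tfeb siRNA replicate 2 was the lowest of its group for 25 of 43 members, 8 of the 13 glutathione transferases among them, and replicate 3 the highest for 28. In the scrambled group, replicate 3 was the highest for 19 members and the lowest for 5. The counts over all 43 members nevertheless kept within 10 to 11 higher and 9 to 10 lower when each library was left out in turn.

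Genes that regulate or feed these enzymes were read from 8 lists chosen with earlier results of these data known. Of all tested genes 33.3% passed, 16.9% upward and 16.4% downward. The share that passed was 50% for NRF2 regulators, 14.3% for xenobiotic receptors, 87.5% for glutathione supply and 50% for NADPH supply. It was 54.5% for UDP-glucuronic acid and PAPS, 80% for efflux transporters, 25% for retinoid genes and 57.9% for other detoxifying enzymes. These shares were not tested. Of 10 tested regulators of NRF2, 5 rose and 5 did not pass, with a median log2 fold change of 0.16. The count that rose was 3 without scrambled siRNA replicate 1 or 3, without Tfeb siRNA replicate 1 or 3 and with no filter on low values. Bach1 and Bach2, repressors that compete with NRF2 at its elements, were named after their values were seen. Without scrambled siRNA replicate 1, for example, their adjusted p was 0.0556 and 0.077, and Bach2 lost its call in each of the 6 fits without a library (0.0537 to 0.0926). Nfe2l2, which encodes NRF2, rose from 22.3 ± 0.581 to 33.7 ± 2.4 FPKM (limma adjusted p = 0.00102), and Sqstm1, the p62 adaptor that binds KEAP1, from 418 ± 23.6 to 547 ± 41.9 FPKM (limma adjusted p = 0.00953). Keap1 had 7.05 ± 0.627 and 6.48 ± 0.267 FPKM and did not pass (limma adjusted p = 0.299). Of 7 tested genes of the aryl hydrocarbon receptor and other xenobiotic receptors 1 rose and 6 did not pass (median 0.04). That gene was Tiparp, a target of the aryl hydrocarbon receptor (from 11.1 ± 1.36 to 15.7 ± 0.0987 FPKM, limma adjusted p = 0.00525), while Ahr itself had 17 ± 0.887 and 17.1 ± 0.715 FPKM (limma adjusted p = 0.946). Cyp1b1, another target, had 93.7 ± 8.39 and 85.8 ± 2.3 FPKM and did not pass (limma adjusted p = 0.229). Cyp1a1, a further target below 1 FPKM and not tested, had 11 scrambled and 48 Tfeb siRNA reads.

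The cofactors of the enzymes come from 3 pathways. Of 8 tested genes listed for glutathione supply 4 rose, 3 fell and 1 did not pass (median 0.24). Ggt1, which reached 1 FPKM in the Tfeb siRNA group only, is among the 4. Some of the 8, such as Ggt1 and Chac1, break glutathione down, so the counts give no direction of supply. Gclc, of the first step of glutathione synthesis, rose from 55.8 ± 4.17 to 85.4 ± 3.68 FPKM (limma adjusted p = 0.00109). Its partner Gclm rose from 17.4 ± 1.53 to 28.1 ± 2.43 FPKM (limma adjusted p = 0.00171). Gss, of the last step, fell (log2 fold change -0.38, SE 0.06, limma adjusted p = 0.00319). Ggt1, which breaks down glutathione outside the cell, rose from 0.568 ± 0.148 to 2.48 ± 0.0582 FPKM (limma adjusted p = 0.000617), having passed the filter through the Tfeb siRNA group, and Gsr, glutathione reductase, rose from 18.9 ± 3.1 to 33.7 ± 1.95 FPKM (limma adjusted p = 0.00273). Cth, which makes cysteine, fell from 7.38 ± 1.19 to 4.32 ± 0.329 FPKM (limma adjusted p = 0.00476), and Chac1, which degrades glutathione inside the cell, from 20.5 ± 5.02 to 12.4 ± 1.96 FPKM (limma adjusted p = 0.0327). Chac1 lost its call without scrambled siRNA replicate 2 (0.0945) or 3 (0.0975) and without Tfeb siRNA replicate 1 (0.0918) or 2 (0.084).

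Of 8 tested genes listed for NADPH supply 4 rose and 4 did not pass (median 0.23). Some of the 8, such as Taldo1, do not make NADPH themselves. Among the 4 that did not pass, G6pdx had 25.2 ± 1.21 and 23.1 ± 0.379 FPKM in the scrambled and Tfeb siRNA groups (limma adjusted p = 0.117). Its groups did not overlap. Pgls was also lower on average in the Tfeb siRNA group, and Idh1 and Idh2 were higher. The count that rose was 3 without scrambled siRNA replicate 1 or 3, without Tfeb siRNA replicate 2 or 3 and with no filter. Taldo1 and Pgd, enzymes of the pentose phosphate pathway, rose from 36 ± 3.2 to 106 ± 5.82 FPKM (limma adjusted p = 0.000103) and from 21.8 ± 0.306 to 37.7 ± 1.12 FPKM (limma adjusted p = 0.000197). Of 11 tested genes listed for the donors UDP-glucuronic acid and PAPS, 1 rose, 5 fell and 5 did not pass (median -0.07). Not all of them make or carry a donor, and the 1 that rose, Gusb, does neither. The count that fell was 4 without scrambled siRNA replicate 2 or 3, without Tfeb siRNA replicate 1 or 3 and with no filter. Papss2, a PAPS synthase, fell from 27 ± 1.28 to 7.05 ± 0.871 FPKM (limma adjusted p = 9.01e-05), and Ugdh, which makes UDP-glucuronic acid, from 64.6 ± 2.73 to 39.9 ± 1.36 FPKM (limma adjusted p = 0.000362). Gusb, which removes glucuronic acid in lysosomes, rose from 14.4 ± 0.783 to 19.6 ± 1.51 FPKM (limma adjusted p = 0.00465).

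The remaining lists were mixed. Of 5 tested efflux transporters 2 rose, 2 fell and 1 did not pass (median 0.05). The count that rose was 1 without scrambled siRNA replicate 3, and the count that fell was 1 without scrambled siRNA replicate 1 or 3, with no filter and with a filter at 5 FPKM. Abcc4 rose from 24.7 ± 0.896 to 31.6 ± 0.773 FPKM (limma adjusted p = 0.00261) and Abcc1 from 10.5 ± 0.563 to 13.3 ± 0.981 FPKM (limma adjusted p = 0.0136), with Abcc1 at 0.0511 without scrambled siRNA replicate 3. Abcb1b fell from 3.02 ± 0.0593 to 1.94 ± 0.21 FPKM (limma adjusted p = 0.00543) and Abcg2 from 6.89 ± 0.224 to 5.36 ± 0.601 FPKM (limma adjusted p = 0.022), with Abcg2 at 0.0591 and 0.0663 without scrambled siRNA replicate 1 and 3. All of these pump drugs or conjugates out of cells.

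Retinoid genes touch Adh7 and the Aldh1a enzymes. Of 8 tested, 1 rose, 1 fell and 6 did not pass (median -0.04). With the replicate block 2 rose, since Rdh11, a retinal reductase, passed upward (adjusted p = 0.044), and 2 fell without scrambled siRNA replicate 3, with TPM, with voom on derived reads and with a filter at 5 FPKM. Rdh10, which oxidises retinol to retinal, fell from 71.4 ± 3.59 to 40.2 ± 3.46 FPKM (limma adjusted p = 0.000574), and Stra6, the receptor for retinol-binding protein, rose from 3.92 ± 0.29 to 6.32 ± 0.354 FPKM (limma adjusted p = 0.00135). Of 19 tested detoxifying enzymes outside the named families 3 rose, 8 fell and 8 did not pass (median -0.20). These counts include Blvrb and Ptges, which each reached 1 FPKM in 1 group only. Over the alternatives 2 to 4 rose and 7 to 9 fell. With the block 4 rose and 9 fell, since Ptgr2, a prostaglandin reductase, passed upward (adjusted p = 0.0391) and Dcxr, a xylulose reductase, downward (0.0107). Pon2, a lactonase, fell from 16.4 ± 0.442 to 7.01 ± 0.305 FPKM (limma adjusted p = 8.61e-05), and Ptges, prostaglandin E synthase, from 2.38 ± 0.227 to 0.812 ± 0.12 FPKM (limma adjusted p = 0.00103), having passed the filter through the scrambled group. Blvrb, a biliverdin and flavin reductase that passed the filter through the Tfeb siRNA group, rose from 0.541 ± 0.0923 to 1.52 ± 0.235 FPKM (limma adjusted p = 0.0043), and Por, the reductase that serves cytochrome P450, from 17.7 ± 1.42 to 22.8 ± 1.32 FPKM (limma adjusted p = 0.0108).

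**Figure D4:**
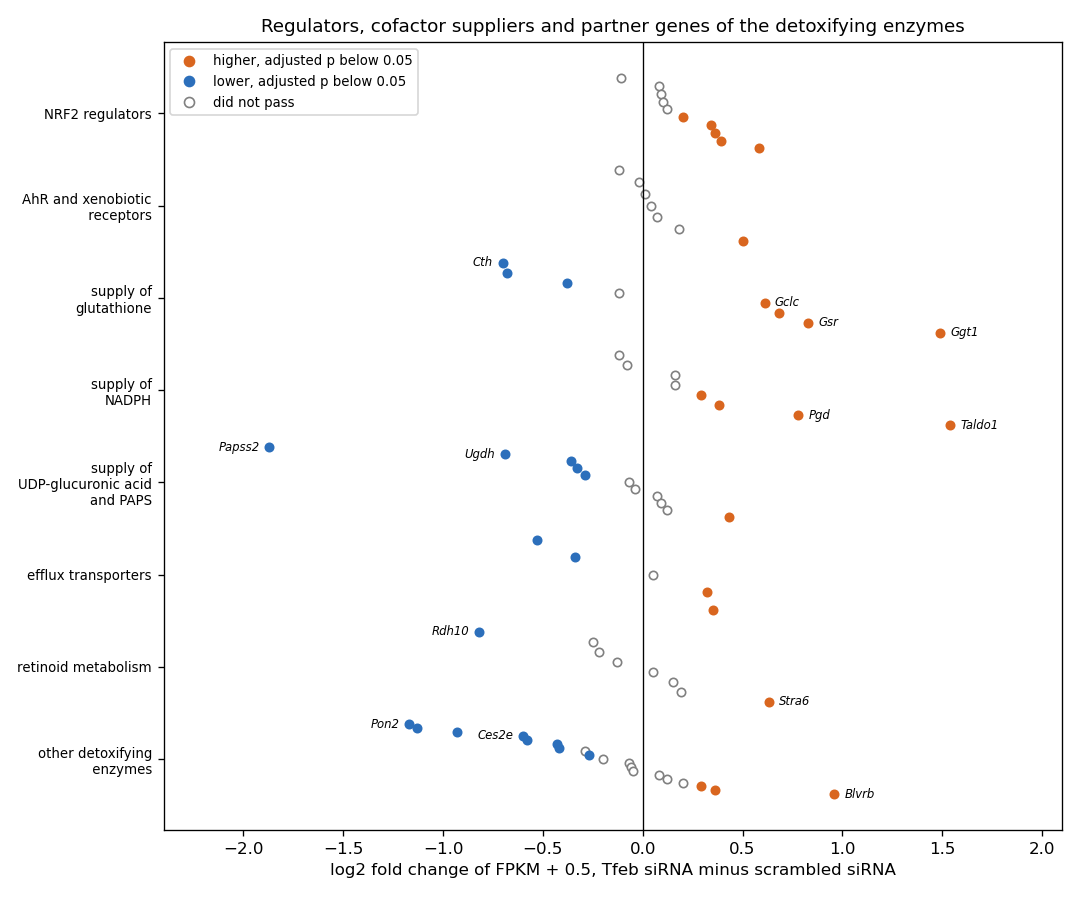
Log2 fold change of FPKM + 0.5 (Tfeb siRNA minus scrambled siRNA, horizontal axis) of the tested genes in the 8 lists of regulators, cofactor suppliers and partners (vertical axis); orange points passed upward, blue points downward and open points did not pass. Taldo1 and Ggt1 lie farthest to the right and Papss2 farthest to the left.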

How the data were processed

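RNA sequencing was done on 6 libraries, 3 per group, grouped and numbered by their titles. The authors deposited FPKM values per gene, per the file headers, with mm10 as the build in the submitters' processing notes. Aligner, counter, annotation release and use of strand: not given in the sources used here. Within a library, all FPKM values times length were whole multiples of a single step (100% at a tolerance of 1e-06), from which reads and depth (18062898 to 20610888) were derived; read numbers cover counting error only. The test was limma (version 3.58.1, R version 4.3.3) fitted to log2(FPKM + 0.5) of the 12257 genes that averaged at least 1 FPKM, with a mean-variance trend and Benjamini-Hochberg adjustment; every adjusted p comes from this limma model unless another setting is named. This log2 scale understates the change of low genes, and x-fold values are ratios of mean FPKM. Errors are SD (n = 3) or SE.

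The members and all lists were chosen with earlier results of these data known. All 43 expressed members are named; values in every library are given for Nqo1, Adh7, up to 4 called members per class with the largest change and the most abundant member of each class. From each list the 2 called genes with the largest change in each direction are named with their group means. Values in every library of Nqo2, Gstm1 and Mgst2 were added after their values were seen. So were the list genes Keap1, Ahr, Cyp1a1, Cyp1b1, Bach1, Bach2, Gclc, Gclm, Gss, G6pdx, Pgls, Idh1, Idh2, Rdh11, Ptgr2 and Dcxr. The same holds for the 6 genes below the level threshold that are named with a call. Residuals of same-numbered libraries correlated at 0.382, 0.129 and 0.166, and those of unlike-numbered libraries at -0.239 to 0.106. Scrambled siRNA replicate 3 with Tfeb siRNA replicate 2 gave 0.106, and scrambled siRNA replicate 2 with Tfeb siRNA replicate 3 gave 0.0996. The pairing of replicates 2 and 3 is therefore uncertain. The main test has no block. Same-numbered libraries were treated as pairs in the block alternative only, on the data alone. The value with that block is printed next to each member or list gene whose call it changed. Shared 50-base words, exon overlaps and 3′ UTRs came from GENCODE M21 (mm10), which held all 43 members, and promoters from RefSeq. Alternatives were other pseudocounts, filters and scaling, no trend, the replicate block, voom on derived reads, and each library left out. The model was tested on simulated data.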

Additional observations from a re-analysis of the deposited data

How the results depend on the processing

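Over 14 alternatives, the number of the 43 members, Nqo1, Adh7, Gsta3 and Mgst2 included, called higher ran from 10 to 14 and lower from 8 to 15, against 12 and 12, and no called member changed direction. Leaving out each library gave 10 to 11 higher and 9 to 10 lower. With the replicate number as a block, 14 were higher and 14 lower, while 40.2% of all genes passed in place of 33.3%; besides the changes of call given beside each gene it changed no other call of a member or list gene. TPM gave 12 and 15, no filter 10 and 8, a filter at 5 FPKM 11 and 10 of 35 members, no trend 12 and 11, and voom on derived reads, chosen after seeing the data, 13 and 13. Of 24 called members 15 kept their call in all 14 alternatives and 3 (Aldh6a1, Cbr4 and Gsta3) in the 13 that tested them, the filter at 5 FPKM leaving them out, and 5 of 19 others gained one under at least 1 alternative. The planned edgeR and DESeq2 fits were not run, since the deposited unit is FPKM. Depth limits the genes below 1 FPKM, of which 41 had fewer than 10 reads in all.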
